A study of Mus musculus with 6 samples.

Results

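Cytosolic ribosomal proteins are the protein part of the ribosome that translates nuclear mRNAs. Genes were taken by symbol, as all named probe sets whose symbol begins with Rpl or Rps and a digit, or is Rplp0, Rplp1, Rplp2 or Rpsa. Rps6k kinase genes and pseudogenes with -ps in the symbol were left out. This gave 68 genes out of 19505 named genes, each with 1 probe set. Of these, 22 encode proteins of the small subunit and 33 proteins of the large subunit, called the core set here. A further 3 are paralogs of narrow tissue use, 9 are other paralogs or copies, and 1, Rps19bp1, encodes a protein that binds RPS19 and is not itself part of the ribosome. Some ribosomal protein genes, such as Rps3, Rps27a, Rpl10 and Rplp2, had no named probe set among those used and were not analysed here.

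The values come from 6 Affymetrix arrays whose tissue label is liver. The recipients had L-Exo for 3 of them and H-Exo for the other 3. L-Exo are exosomes, small membrane vesicles, from the feces of mice on a regular chow diet, and H-Exo are those from mice on a high-fat diet (HFD), prepared from pellets pooled over several animals. All recipients were C57BL/6J mice, described as young adult males, and every one was on HFD while it received 2000000000 exosomes by mouth each day for 14 days. No array of untreated mice is among the 6, and no source says that the arrays of a group are separate mice, so p-values measure the spread between these arrays, which may be technical.

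A ribosome has a small subunit, which binds the mRNA and decodes it, and a large subunit, which joins the amino acids, and each holds a single copy of nearly every one of its proteins. Ribosomal protein mRNAs are therefore made in step and rank among the most abundant of most cells. Most begin with a C and a run of C and T, the terminal oligopyrimidine (TOP) tract, through which the mTORC1 kinase and the RNA-binding protein LARP1 control their translation. The intestine, with its fast renewal of epithelium, and the liver both make large amounts of them.

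RefSeq starts with such a tract are shown for 7 core members, chosen because their annotated start has it. Each line runs 5′ to 3′ from 15 bases before to 15 bases from the annotated start, on GRCm38.p6, and the capitals mark the C at the start and the C and T letters that follow it unbroken.
Rps6, chr4:86857353-86857382, minus strand: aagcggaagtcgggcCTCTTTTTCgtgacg
Rps10, chr17:27635230-27635259, minus strand: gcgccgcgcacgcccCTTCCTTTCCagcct
Rps18, chr17:33955651-33955680, minus strand: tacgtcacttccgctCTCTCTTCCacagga
Rpl15, chr14:18270972-18271001, minus strand: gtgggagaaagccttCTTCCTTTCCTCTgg
Rpl28, chr7:4792950-4792979, plus strand: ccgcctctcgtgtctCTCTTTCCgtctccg
Rpl35, chr2:39005117-39005146, minus strand: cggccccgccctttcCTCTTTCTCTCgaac
Rpl38, chr11:114668565-114668594, plus strand: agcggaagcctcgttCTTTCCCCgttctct
Of the 55 core genes, 43 had a promoter window in the RefSeq table, which covers 250 bases before to 50 bases after a start. In 11 of the 43 (25.6%) a start was a C followed by at least 4 C or T, against 3.01% of all 27025 genes in the table. CCGGAAG, the letters that ETS factors such as GABPA bind, was present on either strand in the windows of 44.2% of the core genes and of 9.93% of all genes. CTCTTTC, searched on either strand and overlapping the tract above, was present in 34.9% and 9.28%. AAGATGGC, searched in the same way, was present in 6.98% and 3.19%. These are letter matches in windows set by the annotated start and say nothing about the use of a site.

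The values of each array were first set against its background and its ceiling. Background was taken as the 95th percentile of an array's negative control probes, which lay between 7.97 and 8.41 on the log2 scale. The ceiling was taken as the range within 0.5 of an array's highest value, which lay between 19.88 and 19.93. All 55 core genes were above background on all 6 arrays, against 4132 of the 22206 probe sets tested. Of the markers of the labelled tissue, 2 of 17 hepatocyte genes were above background on all 6 arrays and 10 on none, whereas 16 of 19 genes of the intestinal epithelium were above it on all 6. The values are therefore given for these arrays and not as liver expression.

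The core genes within the ceiling on all 6 arrays were 2 in number, Rps23, a protein of the decoding centre of the small subunit, and Rpl21, a large subunit protein. Rps23 was at 19.86, 19.72 and 19.74 in L-Exo and 19.85, 19.72 and 19.57 in H-Exo. Rpl21 was at 19.80, 19.81 and 19.53 in L-Exo and 19.78, 19.50 and 19.83 in H-Exo. A difference in these genes could not be read. Rps6, the substrate of the S6 kinases, missed the ceiling by the narrowest margin, with 19.62, 19.66 and 19.45 in L-Exo and 19.60, 19.40 and 19.66 in H-Exo, where the ceiling of the second H-Exo array began at 19.42. In all, 13 core genes reached the ceiling on at least 1 array, and 42 core genes were off the ceiling and above background on all 6. The L-Exo 1 array held 13 members at the ceiling, whereas the other arrays held from 2 to 4.

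**Figure D1:**
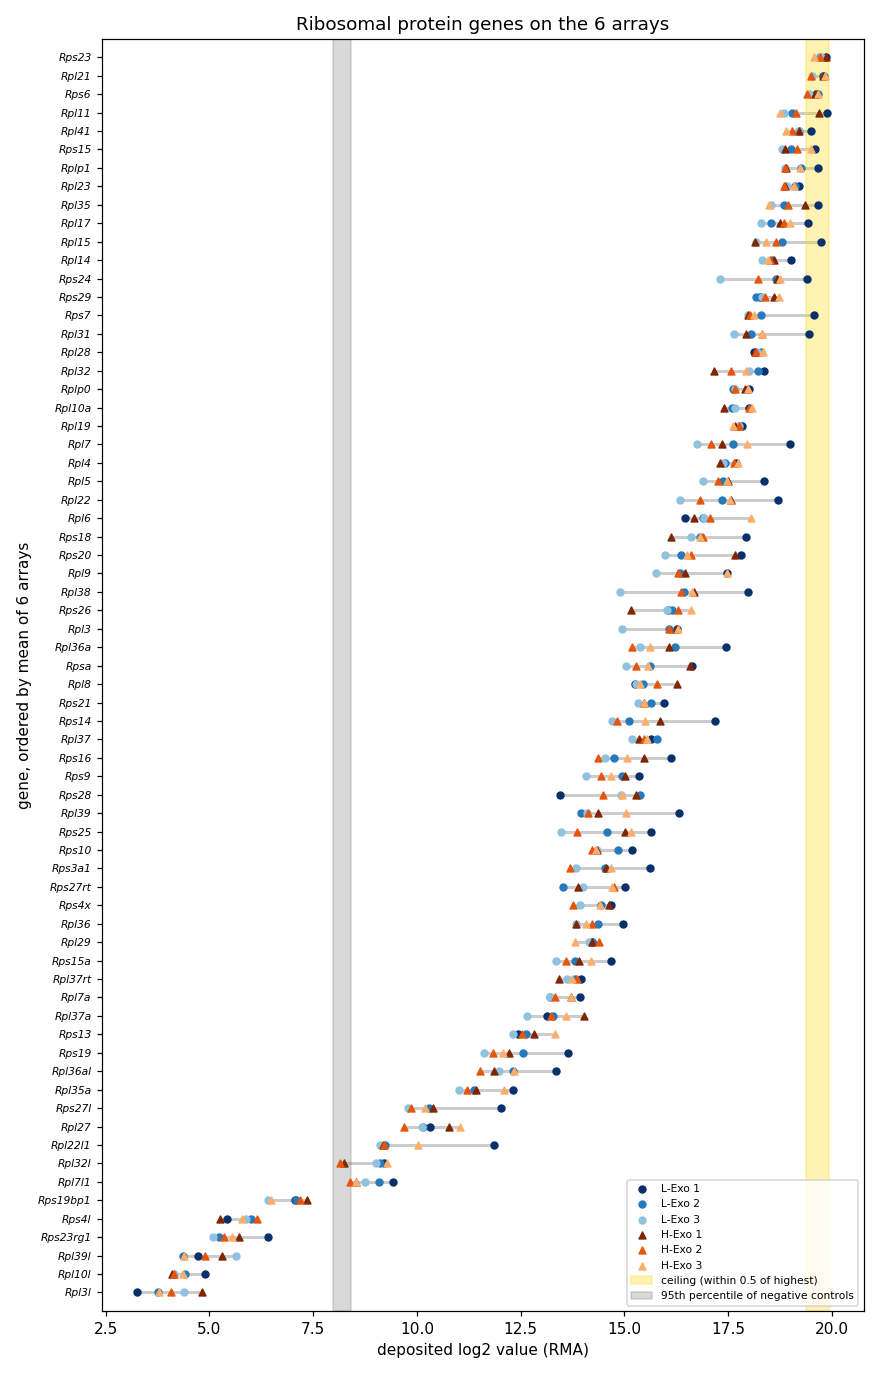
Deposited log2 value (RMA) of the 68 genes on each array, circles for L-Exo and triangles for H-Exo, with a grey line from the lowest to the highest array. The yellow band is the ceiling and the grey band the 95th percentile of the negative controls; brightness also depends on the probes, so genes are not ranked against each other. L-Exo 1 (dark blue) is the highest array for 47 of the 68 genes.

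The paralogs of narrow tissue use were all below background. RPL3L replaces RPL3 in striated muscle, and its probe set read 3.25, 3.76 and 4.39 in L-Exo and 4.82, 4.07 and 3.79 in H-Exo. Rpl10l and Rpl39l, which stand in for Rpl10 and Rpl39 in the male germ line, read between 4.10 and 4.89 and between 4.36 and 5.63. None of these 3 genes was above background on any array, so a difference in them could not be read. Rps4l, which RefSeq lists as a transcribed pseudogene, the retrogene Rps23rg1 and Rps19bp1 were likewise above it on no array.

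The other copies were measured. Rps27l, a near-identical paralog of Rps27 that p53 induces, read 12.02, 10.29 and 9.78 in L-Exo and 10.38, 9.86 and 10.19 in H-Exo. Rpl22l1, the paralog of Rpl22, read 11.85, 9.24 and 9.11 in L-Exo and 9.19, 9.21 and 10.04 in H-Exo. In both, L-Exo 1 was far above the other 5 arrays, which lay together whatever their group. Rps27rt, Rpl37rt, Rpl32l and Rpl36al resemble their parent genes closely, so their probes may also bind the parents' RNA, and their values are uncertain for that reason.

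L-Exo 1 was the highest of the 6 arrays for 47 of the 68 members (69.1%), against 27.6% of all probe sets tested. It was the highest for 17 of 22 small subunit genes and 22 of 33 large subunit genes. The median over core genes of the value minus the gene's own mean of the 6 arrays was 0.54 on L-Exo 1, -0.04 on L-Exo 2 and -0.37 on L-Exo 3. On H-Exo 1, 2 and 3 it was 0.03, -0.16 and 0.10. The members thus differed most within the L-Exo group, between its first and its last array, with the 3 H-Exo arrays between them. L-Exo 3 was the lowest array for 31 members, whereas it was the lowest for 14.6% of all probe sets. L-Exo 1 also stood apart over all probe sets: its mean correlation with the other arrays was 0.951, and that of the others ran from 0.963 to 0.975.

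**Figure D2:**
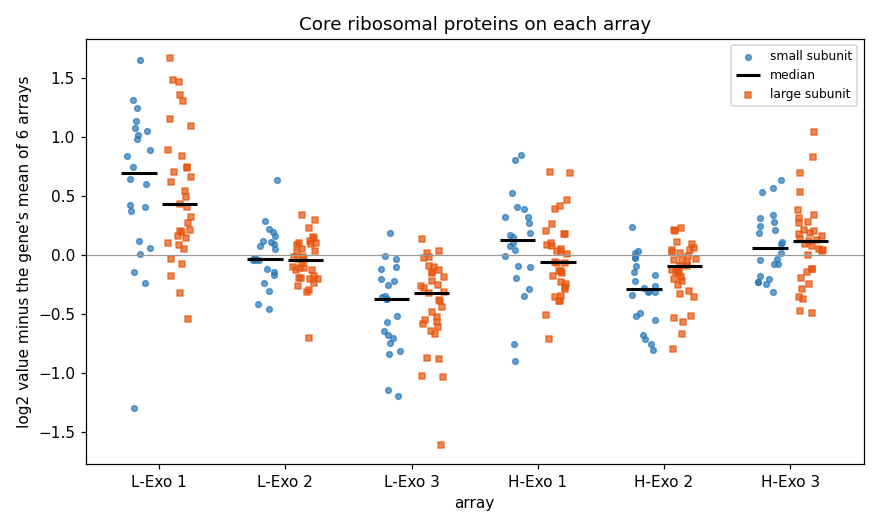
Log2 value of each core gene minus that gene's mean of the 6 arrays, by array, with blue circles for 22 small subunit genes, orange squares for 33 large subunit genes and black bars for medians. The small subunit median is 0.69 on L-Exo 1 and the large subunit median 0.43, and on L-Exo 3 they are -0.37 and -0.32.

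The members did not share this pattern equally. Rpl38, a large subunit protein needed for the translation of Hox mRNAs in the mouse embryo, had the widest range. It read 17.99, 16.44 and 14.90 in L-Exo and 16.69, 16.37 and 16.64 in H-Exo, so that L-Exo held both its highest and its lowest array. Rps14, a small subunit protein whose human gene lies in a region lost in a myelodysplastic syndrome, read 17.18, 15.11 and 14.71 in L-Exo and 15.85, 14.81 and 15.49 in H-Exo. Rpl39, a short protein of the tunnel through which the new chain leaves, read 16.32, 13.95 and 14.10 in L-Exo and 14.36, 14.13 and 15.03 in H-Exo. For both, L-Exo 1 alone was high and the other arrays overlapped.

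Other members whose L-Exo 1 value exceeded the mean of the other 5 arrays by over 1 on the log2 scale had various places in the ribosome. Rps19, the gene most often mutated in Diamond-Blackfan anemia, exceeded it by 1.58, Rpl7 by 1.63 and Rpl22 by 1.56. Rpl5, which binds the 5S rRNA together with RPL11 and holds MDM2 when ribosome assembly fails, exceeded it by 1.07. Rpl11 itself, with 19.89, 19.05 and 18.85 in L-Exo and 19.70, 19.14 and 18.76 in H-Exo, was at the ceiling on both replicate 1 arrays.

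A few members went the other way. Rps28, a small subunit protein near the mRNA exit, read 13.44, 15.38 and 14.93 in L-Exo and 15.27, 14.48 and 14.95 in H-Exo, and L-Exo 1 was its lowest array. Rpl6 read 16.47, 16.89 and 16.93 in L-Exo and 16.67, 17.07 and 18.06 in H-Exo, with L-Exo 1 again the lowest and H-Exo 3 alone high. Among members off the ceiling, Rpl28 (18.13, 18.30 and 18.19 in L-Exo, 18.15, 18.17 and 18.33 in H-Exo) and Rpl19 (17.84, 17.77 and 17.76 in L-Exo, 17.68, 17.76 and 17.62 in H-Exo) varied least, by 0.20 and 0.22 over the 6 arrays. Rplp0, the base of the stalk that recruits elongation factors and a common reference gene in qPCR, varied by 0.39, with 18.00, 17.61 and 17.66 in L-Exo and 17.91, 17.66 and 17.99 in H-Exo. Of the genes with a printed TOP start, the excess of L-Exo 1 over the mean of the other 5 arrays ran from -0.10 in Rpl28 to 1.79 in Rpl38.

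The comparison of the design asks whether the members differ between recipients of H-Exo and L-Exo. No member passed limma's test at an adjusted p under 0.05 over all 22206 probe sets, where 0.00% of all probe sets passed. No member had an unadjusted limma p under 0.05 either, against 4.06% of all probe sets (2.32% with a higher H-Exo mean and 1.74% with a lower one), and the methods' t-test gave 2 members at an unadjusted p under 0.05, Rpl7l1 and Rps29, where 4.15% of all probe sets were, and 0 after adjustment. By the group means 25 members were higher and 43 lower in H-Exo, where 48.9% and 51.1% of all probe sets were. The median log2 difference over the members, H-Exo minus L-Exo, was -0.065, beside -0.010 over all probe sets, and single members lay between -0.72 and 0.59. It was -0.058 for the small subunit and -0.066 for the large.

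This direction rested on L-Exo 1. Without that array 42 members were higher and 26 lower in H-Exo, where 50.0% of all probe sets were higher, and the median log2 difference was 0.18. For the small subunit it was then 0.16 and for the large 0.24. Rpl38 had a log2 difference of 0.12 (standard error 0.65) over the 6 arrays and 0.90 without L-Exo 1. For Rps14 it was -0.28 (standard error 0.60) and 0.48, for Rpl39 -0.28 (standard error 0.60) and 0.48, for Rpl22l1 -0.58 (standard error 0.67) and 0.31, and for Rps27l -0.55 (standard error 0.53) and 0.11. Without L-Exo 1, too, no member passed limma's test, adjusted or unadjusted, where 4.71% of all probe sets had an unadjusted p under 0.05.

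**Figure D3:**
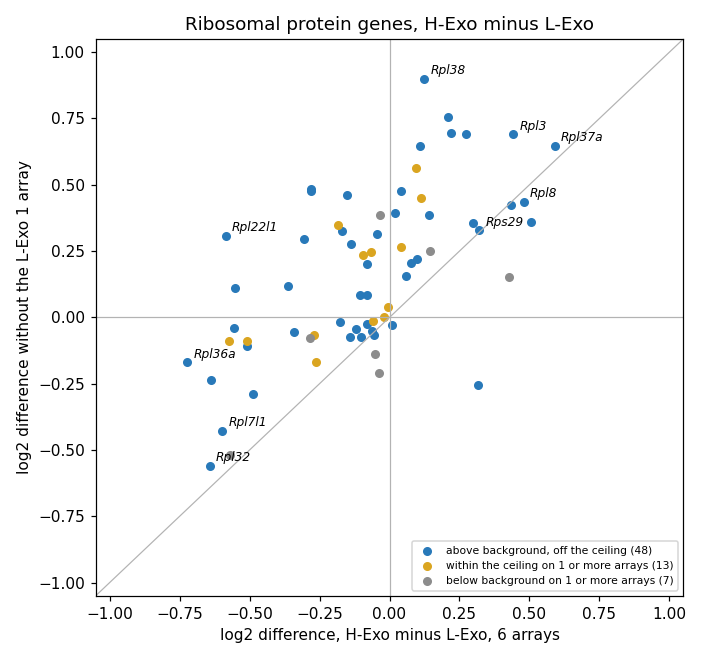
Log2 difference, H-Exo minus L-Exo, of the 68 genes over the 6 arrays (horizontal axis) and without the L-Exo 1 array (vertical axis), coloured by background and ceiling. Genes above the diagonal were raised in difference by leaving the array out; 25 genes lie right of 0 and 42 above 0.

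Groups did not overlap for 4 members (5.88%), where they did not overlap for 9.61% of all probe sets. Of the 4, 1 was higher and 3 were lower in H-Exo, beside 4.90% and 4.71% of all probe sets. Rpl32, a large subunit protein, read 18.36, 18.21 and 18.00 in L-Exo and 17.16, 17.57 and 17.92 in H-Exo. Every H-Exo array was below every L-Exo array, with means of 18.19 ± 0.18 (SD, n = 3) and 17.55 ± 0.38 (SD, n = 3), but the log2 difference of -0.64 (standard error 0.31) did not pass limma's test (adjusted p = 0.988). Rpl7l1, a paralog of Rpl7 that works in ribosome assembly, read 9.43, 9.08 and 8.75 in L-Exo and 8.53, 8.40 and 8.53 in H-Exo, close to background. Its log2 difference was -0.60 (standard error 0.30), also with a limma adjusted p of 0.988. Rpl41, the smallest ribosomal protein, read 19.51, 19.22 and 19.22 in L-Exo, with L-Exo 1 at the ceiling, and 19.22, 19.05 and 18.89 in H-Exo, a log2 difference of -0.26 (standard error 0.28, and -0.17 without L-Exo 1), and its lowest L-Exo and highest H-Exo arrays lay almost together.

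Rps29, a zinc-binding protein of the small subunit, was the single member with every H-Exo array above every L-Exo array. It read 18.27, 18.18 and 18.31 in L-Exo and 18.60, 18.39 and 18.73 in H-Exo, a log2 difference of 0.32 (standard error 0.28, limma adjusted p = 0.988). Groups that do not overlap fix the two-sided p of an exact permutation test at 0.1, the smallest that 3 arrays against 3 allow. Such a test would therefore add nothing for these 4 genes.

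The remaining members with the smallest p had overlapping groups. Of those higher in H-Exo, Rpl37a had a log2 difference of 0.59 (standard error 0.33), Rpl6 of 0.51 (standard error 0.39), Rpl8 of 0.48 (standard error 0.32), Rpl3 of 0.44 (standard error 0.38) and Rps13 of 0.43 (standard error 0.31). Rpl3, which lies by the catalytic centre of the large subunit, read 16.26, 16.08 and 14.95 in L-Exo and 16.24, 16.08 and 16.30 in H-Exo, and its difference was 0.038 without L-Exo 3. That of Rpl6 was 0.11 and that of Rps13 0.22 without H-Exo 3, and without H-Exo 1 that of Rpl8 was 0.25 and that of Rpl37a 0.38. Of those lower, Rpl36a had a difference of -0.72 (standard error 0.51), Rpl36al of -0.64 (standard error 0.41), Rpl32l of -0.57 (standard error 0.36) and Rps10 of -0.49 (standard error 0.31). Without L-Exo 1 the difference was -0.24 for Rpl36al and -0.29 for Rps10, and that of Rpl32l was -0.36 without H-Exo 2 and -0.93 without H-Exo 3. Rpl36a, with 17.45, 16.21 and 15.37 in L-Exo and 16.07, 15.19 and 15.61 in H-Exo, moved from -0.72 to -0.17 when L-Exo 1 was left out and to -1.21 when L-Exo 3 was.

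Genes around the ribosome were examined in lists. Fau, whose product carries a ribosomal protein fused to a ubiquitin-like protein, had a log2 difference of 0.092 (standard error 0.28), with 17.21, 17.05 and 16.78 in L-Exo and 17.11, 17.10 and 17.10 in H-Exo. Of 8 measured genes of other mRNAs with a TOP tract or a related start, none passed limma's test. By the group means 7 were lower in H-Exo, where 51.1% of all probe sets were. Cct4, a chaperonin subunit, was at -0.49 (standard error 0.34, and -0.17 without L-Exo 1) and without overlap of the groups. Without L-Exo 1 the direction was lost, with 4 of the 8 higher and 4 lower, and their median log2 difference moved from -0.21 to 0.059. L-Exo 1 was the highest array for 7 of these 8, as it was for most members. Vim, which encodes vimentin, read 11.37, 9.17 and 8.80 in L-Exo and 9.80, 9.34 and 8.94 in H-Exo, and Naca, a subunit of the complex at the ribosome's exit, 16.20, 15.55 and 14.77 in L-Exo and 15.16, 14.92 and 15.36 in H-Exo. Eef2, the translocating elongation factor, whose mRNA also has a TOP tract, was lowest on L-Exo 1, with 18.33 there and between 19.06 and 19.24 on the other arrays. It is not among the 8, nor is any other translation factor, so the 8 do not stand for all TOP mRNAs. L-Exo 1 minus the mean of the other 5 arrays was -0.84 for Eef2, -0.31 for Eef1g and -0.24 for Eef1b2. It was -0.25 for Pabpc1, -1.42 for Eif4b and 0.19 for Eef1d. Over the 14 elongation and termination factors, which include Eef2, L-Exo 1 was the highest array for 3 (21.4%), against 27.6% of all probe sets. The median over these 14 of L-Exo 1 minus the mean of the other 5 arrays was -0.054.

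Mitochondrial ribosomal proteins, which serve the separate ribosome of that organelle, were represented by 76 genes. By the group means 17 had higher values in H-Exo and 59 lower ones, where 48.9% and 51.1% of all probe sets did. Without L-Exo 1, 32 of the 76 were higher and 44 lower. Their median log2 difference was -0.25 over the 6 arrays and -0.13 without L-Exo 1. None passed limma's adjusted test, and 2 had an unadjusted p under 0.05, both lower, where 1.74% of all probe sets were. Mrpl50 had a log2 difference of -0.88 (standard error 0.37), with 10.49, 9.68 and 9.31 in L-Exo and 8.70, 9.30 and 8.85 in H-Exo, and the difference was -0.55 without L-Exo 1. The other was Mrpl41, at -1.01 (standard error 0.45, and -0.65 without L-Exo 1) and above background on no array. L-Exo 1 was the highest array for 37 of the 76 (48.7%), against 27.6% of all probe sets and 69.1% of the cytosolic members. Of the 76, 20 were above background on no array.

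In translation factors no gene passed the adjusted test. Of 32 measured initiation factors, 17 were higher and 15 lower, where 48.9% and 51.1% of all probe sets were. Of the 32, 1 had an unadjusted limma p under 0.05, where 4.06% of all probe sets did. It was Eif4e, the cap-binding protein. It read 10.31, 10.21 and 10.57 in L-Exo and 9.81, 9.48 and 9.30 in H-Exo, without overlap, a log2 difference of -0.83 (standard error 0.29, limma adjusted p = 0.988). Eif3i was also without overlap, at -0.66 (standard error 0.29). Eif4a1, the helicase that works with Eif4e, had a difference of -0.81 (standard error 0.36) with overlapping groups. Of 14 elongation and termination factors, 5 were higher and 9 lower, with Eif5a at -0.66 (standard error 0.32) and Eef1e1 at -0.75 (standard error 0.33, and -0.46 without H-Exo 1). Eef1a1 was at the ceiling on all 6 arrays.

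Of 77 measured ribosome biogenesis factors, 36 had higher and 41 lower values in H-Exo, where 48.9% and 51.1% of all probe sets did. The median log2 difference was -0.041, and 43 of the 77 were above background on no array. None passed the adjusted test and 3 of the 77 had an unadjusted p under 0.05, where 4.06% of all probe sets did, so the count says nothing particular about these factors. Gar1, of the pseudouridylation complex, had a difference of 0.75 (standard error 0.29), Mdn1, the assembly ATPase, of 1.06 (standard error 0.33) and Wdr75, of the small subunit processome, of -0.83 (standard error 0.34, and -0.55 without H-Exo 2). Gar1 was above background on 2 arrays, Wdr75 on 1 and Mdn1 on none, so these sizes are uncertain. Of 15 genes of RNA polymerase I and its factors, 7 were higher and 8 lower, beside the same 48.9% and 51.1%. None had an unadjusted p under 0.05, and L-Exo 1 was the highest array for 3. L-Exo 1 was the highest array for 19 of the 77 biogenesis factors (24.7%), close to the 27.6% of all probe sets.

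Regulators of ribosomal protein synthesis were examined last. Of 23 measured genes, 11 had higher and 12 lower values in H-Exo, where 48.9% and 51.1% of all probe sets did. Of the 23, 1 had an unadjusted limma p under 0.05, where 4.06% of all probe sets did. It was Ddit4, a stress-induced inhibitor of mTORC1. Ddit4 read 6.95, 6.78 and 7.72 in L-Exo and 9.07, 7.98 and 7.97 in H-Exo, above background on 2 arrays. The H-Exo mean was higher by 1.19 on the log2 scale (standard error 0.40), with an adjusted p of 0.988 in limma. Sesn1, a leucine sensor upstream of mTORC1, read 11.55, 11.63 and 11.65 in L-Exo and 10.14, 11.18 and 11.27 in H-Exo, a difference of -0.75 (standard error 0.36, and -0.39 without H-Exo 1). On L-Exo 1, where the ribosomal proteins were high, several regulators were low. Larp1, which binds TOP mRNAs, read 9.23 there and between 10.78 and 12.13 on the other arrays. Myc, a transcription factor that drives ribosome production, read 5.32 there, below background, and between 8.11 and 8.79 on the others. The median over this list of the value on L-Exo 1 minus the mean of the other 5 arrays was -0.80, beside 0.65 for the core ribosomal proteins and 0.0060 over all probe sets. The list mixes genes that drive ribosome production with inhibitors, so its median has no direction of regulation. A relation to the ribosomal proteins was not tested.

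**Figure D4:**
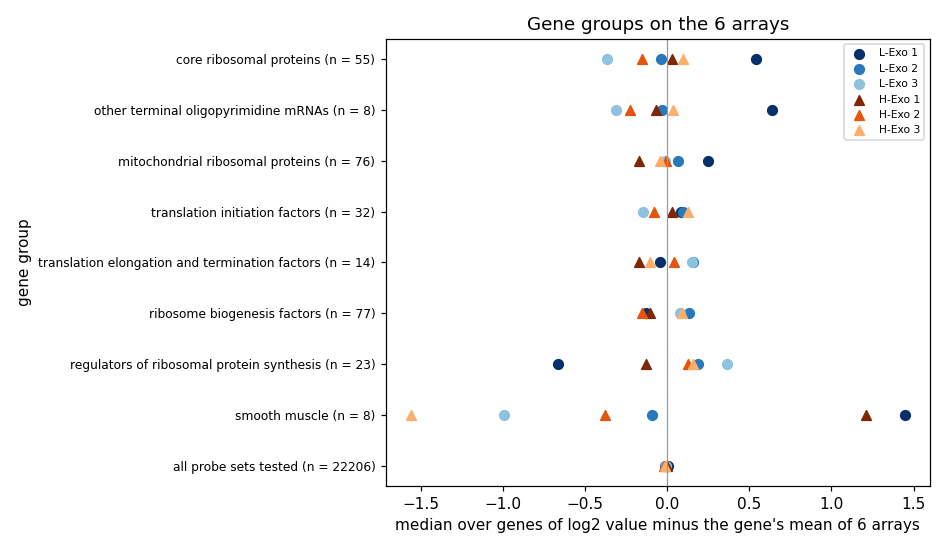
Median over the genes of a group of the log2 value minus the gene's mean of the 6 arrays, 1 point per array, circles for L-Exo and triangles for H-Exo. Core ribosomal proteins and the 8 listed other TOP mRNAs have their highest point on L-Exo 1 (0.54 and 0.64), the regulators their lowest (-0.67). The 8 leave out Eef2 and the other translation factors. Smooth muscle genes are high on both replicate 1 arrays.

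Markers of other cell types were compared with this pattern. All 8 smooth muscle genes were above background on all arrays, and their median deviation from each gene's own mean was 1.45 on L-Exo 1, -0.09 on L-Exo 2 and -0.99 on L-Exo 3. On H-Exo 1, 2 and 3 it was 1.21, -0.38 and -1.56. They were therefore high on L-Exo 1, as the ribosomal proteins were, but also on H-Exo 1, where the core ribosomal proteins had a median deviation of 0.03. Genes of crypt and cycling cells, where ribosomal protein mRNAs are usually abundant, had 0.17, 0.45 and 0.045 on the L-Exo arrays and -0.13, -0.14 and -0.55 on the H-Exo arrays over 14 genes, of which 4 were above background on all arrays. By the group means 12 of the 14 were lower in H-Exo, where 51.1% of all probe sets were. Of the 14, 4 were lower without overlap of the groups, beside 4.71% of all probe sets. The median log2 difference of the 14 was -0.32, or -0.36 without L-Exo 1. The intestinal epithelium list, most of which these arrays detected, ran opposite to the ribosomal proteins within L-Exo, with -0.19, 0.065 and 0.26 there and -0.062, 0.13 and 0.021 in H-Exo over 19 genes. On L-Exo 1 the brush border genes Slc15a1, Alpi, Slc5a1 and Vil1 differed from the mean of the other 5 arrays by -3.01, -2.54, -2.11 and -1.75 on the log2 scale. These 4 are not typical of the list, whose median of that difference was -0.23. L-Exo 1 was the highest array for 2 of the 19 genes. B cell genes had -0.86, -0.66 and -0.84 on the L-Exo arrays and 0.60, 1.63 and -0.11 on the H-Exo arrays over 10 genes, of which 2 were above background on all arrays. T cell and NK cell genes had -0.61, -0.48 and 0.023 on the L-Exo arrays and 0.62, 0.52 and -0.048 on the H-Exo arrays. Of these 11 genes 10 were higher in H-Exo by the group means, where 48.9% of all probe sets were. All 11 were above background on no array. The part of these cell types in the values of the ribosomal proteins was not tested, and in such bulk samples fewer cells of a type and less RNA per cell cannot be told apart.

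Bright probe sets that stayed off the ceiling were examined in the same way. Over 1203 probe sets that are not members, that lay off the ceiling on all arrays and whose mean log2 value was over 12, the median of L-Exo 1 minus the mean of the other 5 arrays was -0.11. Over the 42 core genes off the ceiling and above background it was 0.55. L-Exo 1 was the highest array for 372 of the 1203 (30.9%) and for 28 of the 42 (66.7%). The 1203 were dimmer than the 42, with a median level on L-Exo 1 of 13.66 beside 16.29. Probe sets at the ceiling of an array, members included, numbered 88 on L-Exo 1 and from 54 to 72 on the other arrays. The part of brightness in the pattern was not tested.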

How the data were processed

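RNA from 6 samples labelled liver was hybridised to Affymetrix mouse arrays. The authors deposited log2 values, normalized over the arrays with RMA in Transcriptome Analysis Console 4.0 per the labels. The genome build was not given in the sources used here. Of 28846 rows, 5222 were negative controls and 1418 were controls of other kinds. The tests used the remaining 22206 probe sets, of which 19572 have 1 gene symbol and 2634 are unnamed here. The groups, of 3 arrays each, follow the labels. H-Exo was compared with L-Exo by limma 3.58.1 (lmFit and eBayes) in R 4.3.3 on the deposited log2 values, without further normalization, and p-values were adjusted by Benjamini-Hochberg over all 22206 probe sets at 0.05. The number of arrays limits the precision. The fit was tested on simulated data with known changes.

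The ceiling (within 0.5 of an array's highest value) and the background (95th percentile of negative controls) were set with the values known, and the members and gene lists were chosen with earlier results of these data known. Genes were named by role, as paralogs of narrow tissue use, as the 6 members with the smallest p in each direction, and as up to 3 leading genes of each list. A further part of that rule, members off the ceiling on at least 1 array, took in nearly all members, which are shown in the plots and given as counts. Other genes were named for the size of their L-Exo 1 value or for their narrow range after their values were seen. The alternatives were array weights, quantile normalization, subtraction of array medians, trend and robust settings, a filter on dim probe sets, a replicate block, the methods' t-test, other ceiling widths and leaving out arrays. Sequences are from RefSeq on GRCm38.p6, where 55 of the 68 members matched by gene identifier.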

Additional observations from a re-analysis of the deposited data

How the results depend on the processing

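The absence of members past the adjusted threshold held under every alternative, and 2 members and 921 probe sets had an unadjusted p under 0.05 in the methods' t-test (4.15% of all probe sets). Probe sets past the adjusted threshold were 10 with array weights, 1 without both replicate 1 arrays, a setting chosen after seeing the data, and 0 to 1 when 1 array was left out. Members at an unadjusted limma p under 0.05 were 3 with array weights, where 9.51% of all probe sets were, 1 without both replicate 1 arrays (5.46% of all probe sets), and 0 to 3 when 1 array was left out. Without L-Exo 3 these were Rpl36a, Rpl7l1 and Rps19 (5.90% of all probe sets), and without H-Exo 3 Rpl32 and Rpl32l (4.31%). The median log2 difference over the members ran from -0.28 to 0.18 when 1 array was left out, the latter without L-Exo 1. Within 0.25 of the highest value, 0 members were at the ceiling on all arrays. L-Exo 1 was the highest array for 35 members after quantile normalization and 45 after subtracting array medians, beside 47 on the deposited values. Over all probe sets the shares after these 2 steps were 26.7% and 26.8%. The size of this pattern thus depended in part on the normalization. With array weights the log2 difference was 0.053 for Rpl22l1, 0.025 for Rps14 and 0.28 for Rpl39, and without both replicate 1 arrays it was 0.45, 0.24 and 0.56. Leaving out 1 array gave -1.06 to 0.31 for Rpl22l1, -1.01 to 0.11 for Rps27l, -0.65 to 0.90 for Rpl38, -0.76 to 0.48 for Rps14, -0.70 to 0.48 for Rpl39 and -0.026 to 0.19 for Fau. The cause was not tested. Deviations of same-numbered arrays correlated at 0.22, 0.043 and 0.18, and those of arrays with different numbers between -0.22 and 0.085. L-Exo 1 and L-Exo 3 correlated best with their own number and L-Exo 2 with H-Exo 3, at 0.074. Since 1 of the 3 pairs was under 0.1 and no label ties the numbers to a shared batch, the arrays were not treated as paired, and whether they are cannot be settled here. With the replicate block 0 probe sets and 0 members passed, and the median log2 difference was -0.065.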
